A study of Mus musculus with 12 samples.

Results

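The bimaternal (BM) mouse embryo at E15.5 was compared with the wild-type (WT) embryo of the same age over the 19 autosomes, cytosine by cytosine. The cytosines compared are those of chromosomes 1 to 19 with a methylation value in both libraries, which are 4019355 of 7811806 listed autosomal positions (51.5%). The BM embryo was made by injecting a parthenogenetic haploid embryonic stem cell (phESC), whose genome is of maternal origin, into an oocyte, and it is labelled as a knockout of differentially methylated regions (DMR-KO). The WT embryo came from a normal sperm and oocyte. For a value from the opposite origin, a bipaternal (BP) DMR-KO embryo of E15.5, made by injecting an androgenetic haploid embryonic stem cell (ahESC) and a sperm into an oocyte without its nucleus, is given beside them. The labels do not say which regions were deleted, so a window inside a deletion could not be marked, and its BM value would come from the remaining copy alone. Strain and sex are not given in the sources used here. The BM library has values at 51 chromosome Y positions and the WT library at 1470. This count alone does not mark a Y chromosome, since the BM adult brain has 890 and late phESCs 654, both of maternal origin alone. The embryos may thus differ in their sex chromosomes too, and sex cannot be told apart from parental origin in BM minus WT.

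Each group is 1 whole-embryo library of reduced representation bisulfite sequencing, which reads CpG-rich fragments cut by the enzyme MspI at CCGG. No difference between the embryos therefore has a replicate check or a p-value, and the numbers below are percent methylation, with differences as BM minus WT in percentage points. How many reads stand behind a value is not known, and a level in a whole embryo cannot tell a share of methylated cells from a share of methylated copies in each cell. Coordinates are mm9. The BM library has values at 4216964 autosomal positions and the WT library at 4299166. Listed cytosines outside CpG, where mammalian tissue carries little methylation, averaged 0.512% in BM and 0.554% in WT over 875602 positions. No RNA was measured, so the whole-embryo label was not checked against expressed markers.

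Imprinted genes are expressed from 1 parental copy, and the choice is marked by DNA methylation placed in the egg or the sperm. A region methylated in the egg alone, such as the start of Kcnq1ot1, is methylated on the maternal copy and free on the paternal copy in body tissue, so a bulk sample of normal tissue reads an intermediate level there. A few regions, among them the control regions of H19-Igf2 and Dlk1-Meg3, are marked in sperm, and further promoters at the same loci acquire methylation after fertilisation.

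Sequences at 5 loci with large differences between the embryos follow, a selection that does not include H19, Slc38a4 or Peg12, 5′ to 3′ on the strand of the gene, with each CpG in capitals. The first was read from the GENCODE M21 transcript and the others from the RefSeq promoter table (both of build GRCm38), and their mm9 coordinates come from matching them to the listed positions. The Kcnq1ot1 stretch is exonic, chr7:150481278-150481525 on the minus strand. The Nesp sequence is the most upstream Gnas promoter, chr2:174109571-174109870 on the plus strand. That of Meg3 lies at chr12:110778956-110779255 on the plus strand, that of Romo1, which overlaps the promoter of Nfs1, at chr2:155969719-155970018 on the plus strand, and that of Snrpn and Snurf at chr7:67150036-67150335 on the minus strand.
Kcnq1ot1: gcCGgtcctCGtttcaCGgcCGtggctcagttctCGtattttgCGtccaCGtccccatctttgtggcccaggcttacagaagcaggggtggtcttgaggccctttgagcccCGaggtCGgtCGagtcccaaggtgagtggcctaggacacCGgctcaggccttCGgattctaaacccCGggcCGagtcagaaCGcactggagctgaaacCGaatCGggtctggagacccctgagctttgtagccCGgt
Nesp: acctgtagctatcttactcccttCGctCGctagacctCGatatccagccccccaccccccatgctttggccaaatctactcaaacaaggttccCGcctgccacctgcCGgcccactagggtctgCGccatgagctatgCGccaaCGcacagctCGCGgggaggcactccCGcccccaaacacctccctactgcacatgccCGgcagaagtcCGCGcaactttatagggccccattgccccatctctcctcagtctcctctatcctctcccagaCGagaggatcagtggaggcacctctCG
Meg3: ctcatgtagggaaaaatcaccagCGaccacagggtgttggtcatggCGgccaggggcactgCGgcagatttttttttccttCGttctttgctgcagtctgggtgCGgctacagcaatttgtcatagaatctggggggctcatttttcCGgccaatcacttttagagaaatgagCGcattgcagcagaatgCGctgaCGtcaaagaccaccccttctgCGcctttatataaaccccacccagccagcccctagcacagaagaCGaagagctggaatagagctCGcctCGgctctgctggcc
Romo1: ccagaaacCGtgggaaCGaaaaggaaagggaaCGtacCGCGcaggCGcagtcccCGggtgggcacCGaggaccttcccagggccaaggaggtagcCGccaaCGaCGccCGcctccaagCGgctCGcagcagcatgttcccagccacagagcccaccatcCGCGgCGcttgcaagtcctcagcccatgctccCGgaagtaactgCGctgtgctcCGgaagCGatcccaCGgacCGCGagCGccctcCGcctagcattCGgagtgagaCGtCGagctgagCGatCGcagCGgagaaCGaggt
Snrpn: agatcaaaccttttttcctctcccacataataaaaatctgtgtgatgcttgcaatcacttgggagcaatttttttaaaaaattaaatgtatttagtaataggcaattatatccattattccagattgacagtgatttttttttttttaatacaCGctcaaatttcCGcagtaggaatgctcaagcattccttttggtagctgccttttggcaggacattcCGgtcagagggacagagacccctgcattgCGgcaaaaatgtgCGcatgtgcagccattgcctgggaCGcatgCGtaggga
The letters TGCCGC, the core bound by the imprint-keeping factor ZFP57 when methylated, were searched on both strands. They occur 1 time each in the Snrpn and Meg3 sequences and 0 times in the other 3, while 11.6% of 31396 autosomal promoters of the table hold them.

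Over most autosomal sequence the BM embryo lay close to the WT embryo. Over 386051 CpGs of placed exons and promoters outside CCGG (called exonic CpGs), with the strands averaged, the mean was 14.4% in BM and 14.2% in WT, a difference of 0.215 points, and 96.9% of CpGs lay within 10 points. All 19 autosomes had a positive mean difference, the smallest on chromosome 16 at 0.117 and the largest on chromosome 17 at 0.464. The excess of BM sat among methylated cytosines. Cytosines that reached 20% in at least 1 of the 10 other libraries averaged 68.9% in BM and 67.1% in WT (743180 cytosines, 1.82 points), and 21609 of them were at least 25 points higher in BM against 6101 lower. In megabases holding at least 50 such cytosines the median difference was 1.70 points, and 2208 of 2345 megabases were higher in BM. Chromosome X, which is outside the comparison, had 35.4% in BM and 12.3% in WT.

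The spread between the strands of a CpG inside 1 library gives a scale for these numbers. Among CpGs at a mean level of 20 to 60%, the difference between the strands had an SD of 11.6 points in BM and 11.2 in WT, and the difference between the embryos on the plus strand had an SD of 13.02. These 9179 CpGs averaged 41.1% in BM and 38.6% in WT. At 60 to 100% the strand SD was 7.36 points in BM and 7.87 in WT, against 8.03 between the embryos on the plus strand. At single CpGs the spread between the embryos was close to that between the strands of 1 embryo.

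**Figure D1:**
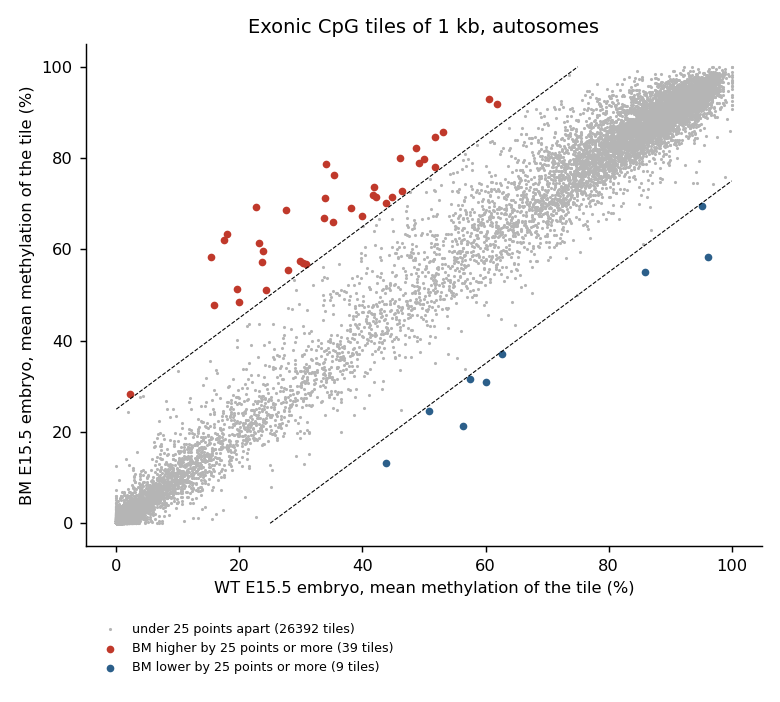
Mean methylation of 26440 autosomal 1 kb tiles of exonic CpGs, BM E15.5 embryo (vertical axis, %) against WT E15.5 embryo (horizontal axis, %). Each point is a tile, and the dashed lines mark a difference of 25 points; 39 tiles lie above the upper line and 9 below the lower line.

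Averaged over 1 kb tiles of at least 3 exonic CpGs, differences of 25 points were rare and mostly towards higher methylation in BM. Of 26440 tiles, 39 were higher in BM (0.148%) and 9 lower (0.034%), and 97.4% lay within 10 points. They came mainly from tiles of intermediate level: of 1277 tiles with a mean of 20 to 60%, 29 were higher (2.27%) and 6 lower. The 17274 tiles under 20% averaged 1.47% in BM and 1.47% in WT, which leaves little room for such differences. Of these, 1 was higher and 0 were lower. Tiles with few CpGs gave most of them, since 24 of the 39 and 8 of the 9 held 3 or 4 CpGs, as did 7122 of all 26440. Number of CpGs and level go together, so their parts cannot be told apart here. These 7122 tiles averaged 59.7% in BM and 58.7% in WT. The 6251 tiles with at least 20 CpGs averaged 2.46% in BM and 2.45% in WT. None of the 6251 differed by 25 points, at levels that leave little room for it. Of the 27 higher tiles measured on both strands, 25 were higher on both and 15 passed 25 points on both. Since tiles were called on the average of these same strand values, the strands are no separate check.

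The largest excess, 46.6 points, lay in a tile over Fgf1 exons (chr18:39006752-39006786), a fibroblast growth factor gene, with 69.3% in BM and 22.7% in WT over 4 CpGs. The tile over the Nesp promoter came next with 45.4 points and is described with its locus. Nrap, a muscle protein of the myofibril, had 78.7% in BM and 34.0% in WT over 3 CpGs. Fitm1, which partitions fat into lipid droplets, had 62.1% in BM and 17.5% in WT over 6 CpGs of its last exon (chr14:56195303-56195388). Both strands of Fitm1 showed it, by 42.0 points on the plus strand and 46.2 on the minus strand. Kdr (chr5:76329806-76329847, last exon), the main receptor for vascular endothelial growth factor, had 58.4% in BM and 15.4% in WT over 4 CpGs (47.6 points on the plus strand, 38.4 on the minus strand). Asic3, an acid-sensing ion channel, had 68.7% in BM and 27.6% in WT. The BP embryo read 81.7% at the Fgf1 tile, 72.8% at Nrap, 73.9% at Fitm1, 58.0% at Kdr and 73.0% at Asic3. Map3k14, the NF-kappaB-inducing kinase, had 71.3% in BM and 33.8% in WT, with 29.3 points or more on each strand. Eps8l2, an actin regulator of the inner ear, had 76.3% in BM and 35.4% in WT over 3 CpGs of 1 strand.

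Tiles with 10 or more CpGs are 6 of the 39. Besides Kcnq1ot1 they include Sipa1, a Rap GTPase-activating protein (15 CpGs, 78.9% in BM and 49.1% in WT), and Lhcgr, the receptor for luteinizing hormone (13 CpGs, 47.9% in BM and 15.8% in WT). Eng, the endothelial co-receptor endoglin, had 48.4% in BM and 19.97% in WT over 10 CpGs of its first exon (chr2:32502321-32502400), all of them higher in BM. At Gmeb2 (chr2:181022600-181022737), a glucocorticoid-modulatory binding protein, 12 CpGs had 51.1% in BM and 24.3% in WT, with 26.2 points on the plus and 27.4 on the minus strand. Scrt1, a zinc finger factor of neurons, had 56.8% in BM and 30.9% in WT over 10 CpGs. The difference was 42.0 points over 4 CpGs on the plus strand and 15.2 over 6 other CpGs on the minus strand. Strand and position therefore cannot be told apart there. At Gmeb2 and Eng the early diploid embryonic stem cells stood at 1.04% and 3.68% and the WT adult brain at 65.2% and 57.6%.

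The 9 lower tiles held 3 to 8 CpGs, and 7 of them were read on 1 strand only. Jhy, a gene of motile cilia, had 58.3% in BM and 96.1% in WT over 3 CpGs. Sult2b1, a sulfotransferase for sterols, had 21.3% in BM and 56.4% in WT over 4 CpGs, by -33.3 points on the plus and -36.8 on the minus strand, and is the only lower tile past 25 points on both. Hoxa5, a homeobox gene, had 24.7% in BM and 50.9% in WT over 4 CpGs of its last exon. Tiam2, a Rac exchange factor, had 55.1% in BM and 86.0% in WT. Dusp8 (a phosphatase of MAP kinases), Qrfp (a neuropeptide of feeding), Fam160b1 and Ccdc116 differed by -29.0, -25.9, -25.8 and -25.5 points. The remaining tile, chr7:7231015-7231120, has no named exon but lies in the promoter window of the vomeronasal receptor gene Vmn2r29. It had 13.3% in BM and 43.8% in WT over 8 CpGs, by -53.2 points on the plus and -6.06 on the minus strand.

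**Figure D2:**
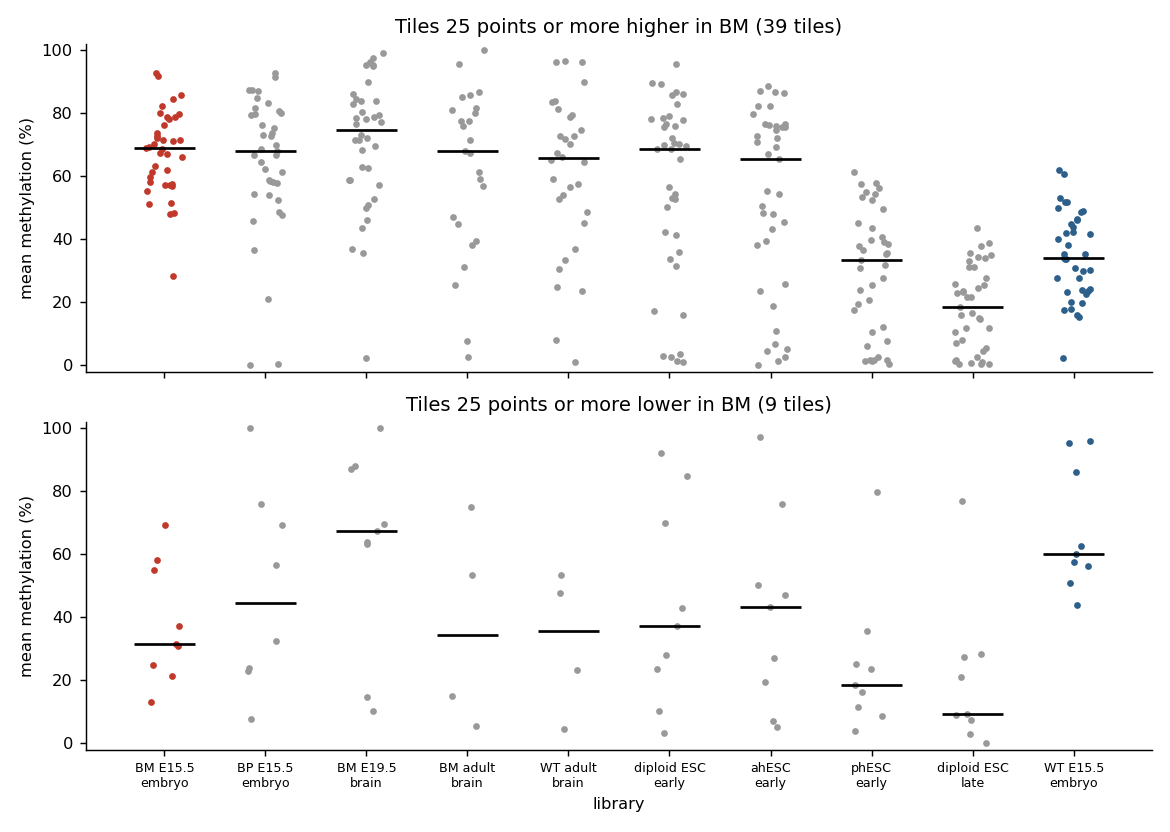
Mean methylation (%) of the 39 tiles higher in BM (top) and the 9 tiles lower in BM (bottom) in 10 libraries; each point is a tile measured in that library and the line is the median. At the higher tiles the BM median was 69.0% and the WT E15.5 embryo median 34.0%, with 68.1% in the BP embryo.

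Across the other libraries, the higher tiles had a median of 68.1% in the BP embryo, 74.8% in the BM E19.5 brain (38 tiles measured) and 65.7% in the WT adult brain (32 tiles), beside 69.0% in the BM and 34.0% in the WT E15.5 embryo. BM and BP are read here against the same WT library, so the levels are given side by side and no comparison of the 2 contrasts was made. Early phESCs, the cell type that gave the BM embryo its non-oocyte genome, had a median of 33.5%, and early diploid embryonic stem cells 68.7%. At the 9 lower tiles the medians were 31.6% in BM, 44.6% in BP (8 tiles), 67.3% in the BM E19.5 brain and 60% in the WT embryo.

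**Figure D3:**
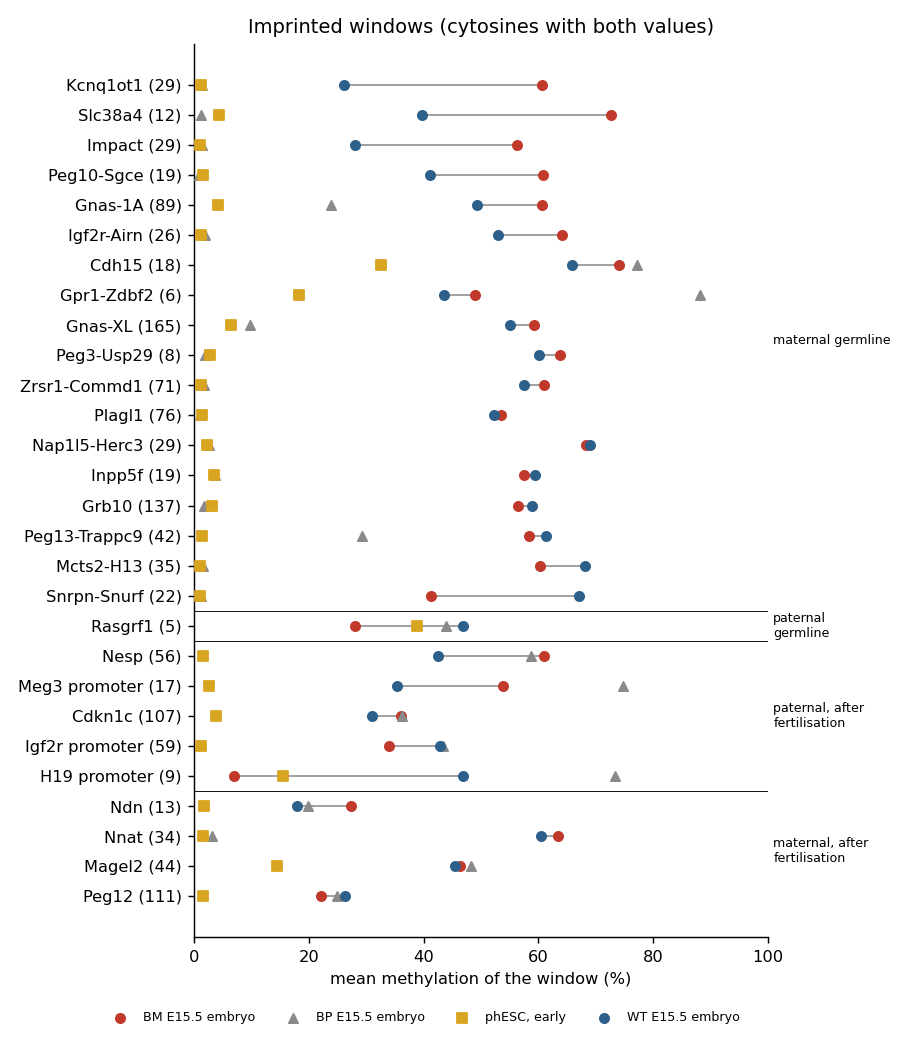
Mean methylation (%) of 28 imprinted windows in the BM, BP and WT E15.5 embryos and in early phESCs, over cytosines with a value in both BM and WT (their number in brackets); the grey line joins BM and WT. Kcnq1ot1, Slc38a4 and Impact lie higher in BM by 28.3 to 34.5 points, and Snrpn-Snurf and the H19 promoter differ by -25.9 and -39.9 points.

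At imprinted loci the BM embryo carried intermediate methylation in windows marked in the egg. Over 18 such windows the mean was 59.9% in BM (SD over windows 7.73, from 41.3 to 74.0%) and 53.1% in WT (SD 12.9, from 26.2 to 69.1%). Within 10 points lay 11 of the 18, against 97.4% of the exonic tiles, most of which are under 20%. Of these 18, 3 were at least 25 points higher in BM and 1 lower. Of 1 kb tiles built over all autosomal cytosines that reached 20%, 0.819% were as much higher and 0.0618% as much lower; the windows were picked as imprinted loci and mostly lie at the intermediate levels where such tiles concentrate. The BP embryo was below 4% in 13 of the 18 and the BM embryo in 0. The rest had 9.69% (Gnas-XL), 23.8% (Gnas-1A), 29.2% (Peg13-Trappc9), 77.2% (Cdh15) and 88.2% (Gpr1-Zdbf2) in the BP embryo. At Cdh15 and Gpr1-Zdbf2 the BP embryo lay above both BM and WT, so their place in this group is doubtful. Mest could not be measured.

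Among growth regulators of this class, Grb10, an adaptor that restrains insulin and growth factor signals, had 56.4% in BM and 58.9% in WT over 137 cytosines. Plagl1, a zinc finger factor that restrains proliferation, had 53.5% in BM and 52.3% in WT. Zrsr1-Commd1 had 61.04% in BM and 57.6% in WT, and Nap1l5-Herc3 68.3% and 69.1%. The Zrsr1-Commd1 means cover MspI stretches that differed in both directions. Numbered by position, stretches 2 and 3 were higher in BM on both strands, by 18.48 to 23.69 points. Stretches 4 and 5 were lower on both strands, by -1.97 to -9.94 points. In stretches 1 and 6 the strands went opposite ways, with -23.76 points on the minus strand of stretch 6. Airn, the antisense RNA that silences Igf2r on the paternal copy, had 64.2% in BM and 53.1% in WT at its start. Peg10-Sgce, whose Peg10 derives from a retrotransposon and is needed in the placenta, had 60.9% in BM and 41.1% in WT, by 20 points on the plus and 19.53 on the minus strand. At the Gnas locus the XL window had 59.2% in BM and 55.1% in WT over 165 cytosines, and the 1A window 60.7% and 49.4%. Mcts2-H13 had 60.3% in BM and 68.2% in WT, Inpp5f 57.5% and 59.4%, and Peg13-Trappc9 58.4% and 61.4%. Peg3-Usp29 had 63.9% in BM and 60.1% in WT, Gpr1-Zdbf2 48.9% and 43.6%, and Cdh15 74.0% and 65.9%. All 6 lay within 10 points.

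Kcnq1ot1 is an antisense RNA that silences its neighbours on the paternal copy. Its window had 60.7% in BM and 26.2% in WT over 29 cytosines, and the difference filled 1 of 2 adjacent MspI stretches. In the stretch holding CpGs 1 to 11 of the printed sequence (positions 3 to 151) the 19 cytosines averaged 61.2% in BM and 12.8% in WT. On the gene strand there they ran from 47.6 to 51.6% in BM and from 13.9 to 24.2% in WT. On the opposite strand they ran from 69.8 to 75.8% in BM and from 0 to 20.6% in WT. CpGs 13 to 18 (positions 178 to 245), which follow at once, averaged 59.7% in BM and 51.5% in WT over 10 cytosines. The first stretch read 62.6% in the BM E19.5 brain, 55.5% in the BM adult brain, 57.1% in the WT adult brain and 0.964% in early phESCs.

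Impact, whose product restrains the GCN2 kinase (chr18:13131640-13132015), had 56.3% in BM and 28.0% in WT over 29 cytosines, by 29.3 points on the plus and 28.8 on the minus strand. Slc38a4, an amino acid transporter of placenta and liver (chr15:96885615-96885752), had 72.7% in BM and 39.8% in WT over 12 cytosines, by 40.8 points on the plus and 26.3 on the minus strand. For both, neither strand reversed the direction. The BP embryo had 1.42% at Impact and 1.26% at Slc38a4.

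Snrpn-Snurf, the centre of the imprinted domain on chromosome 7, was the lower window, with 41.3% in BM and 67.1% in WT over 22 cytosines. The strands did not read alike: 6 plus-strand cytosines averaged 61.4% in BM and 52.2% in WT, and 15 minus-strand cytosines 32.3% in BM and 75.9% in WT. In the printed promoter the 3 cytosines of the gene strand (CpGs 3, 4 and 5) had 0, 3.23 and 6.06% in BM and 89.8, 92.2 and 92.2% in WT. The opposite strand of CpGs 4 and 5 had 60% at each in BM, and 53.3 and 66.7% in WT. The BM E19.5 brain and the WT adult brain had 2.02% and 5.25% on the gene strand and 71.0% and 65.7% on the opposite strand, so strand gaps of this size occurred in a WT tissue too. Over 6 CpGs of this window read on both strands the mean strand gap was 46.5 points in BM and 34.9 in WT, against 8.41 and 8.01 over all CpGs of 20 to 60% that reached 20% elsewhere. The direction also changed along a strand. Minus-strand cytosines from chr7:67149939-67149979 had 62.5 to 66.7% in BM and 52.4% in WT, against the direction of the minus-strand mean. The direction at Snrpn therefore depends on the strand read and on the position.

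**Figure D4:**
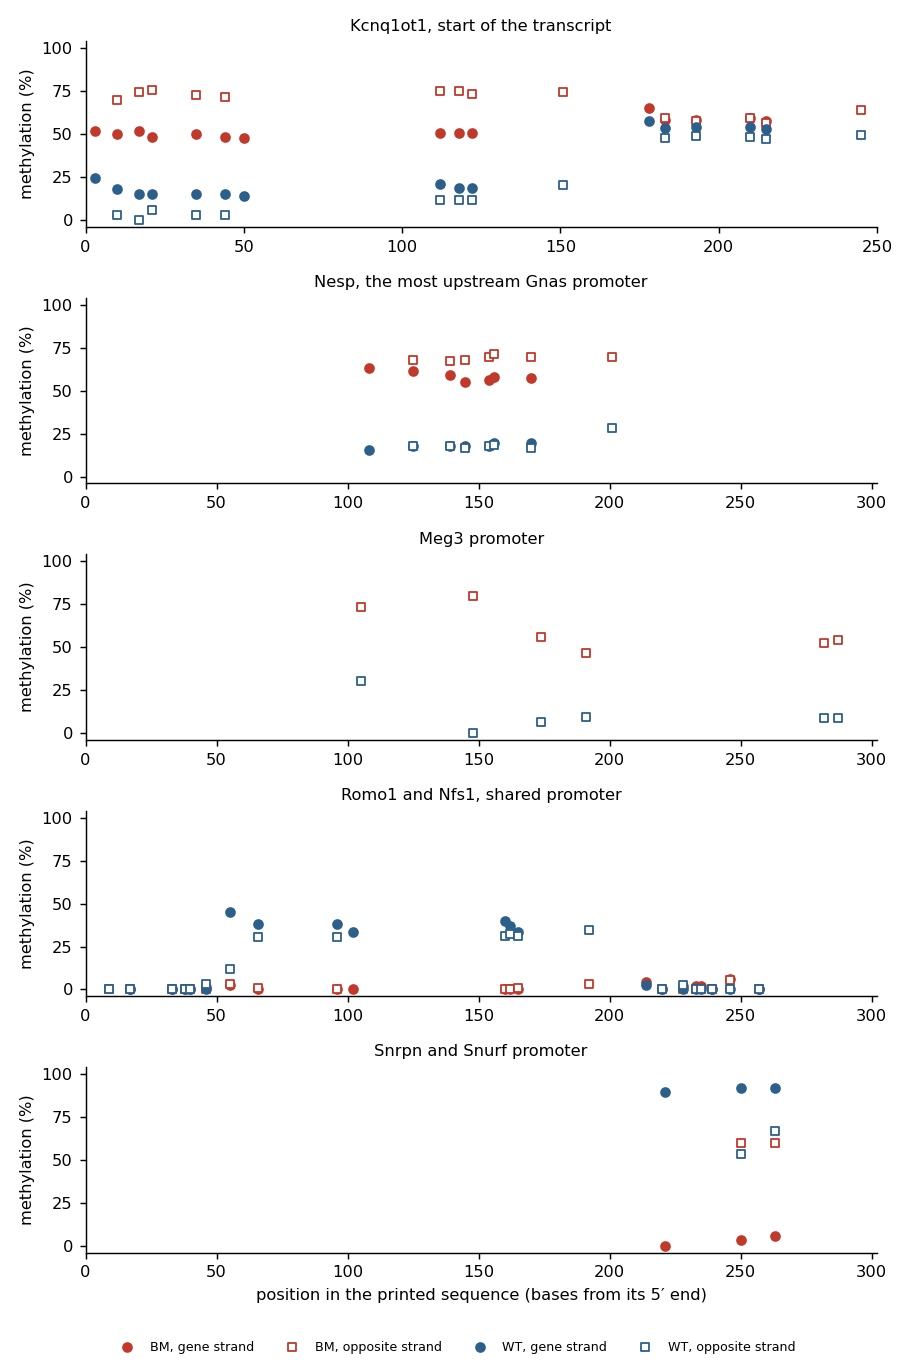
Methylation (%) of each measured cytosine along the 5 printed sequences, by position from the 5′ end in bases; filled circles are the strand of the gene, open squares the opposite strand, red BM and blue WT. BM lies above WT through Nesp, Meg3 and the first stretch of Kcnq1ot1, WT above BM in the middle of the Romo1 sequence, and the Snrpn strands part.

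Regions methylated on the paternal copy differed in both directions. H19, a noncoding RNA transcribed from the maternal copy, had 6.86% in BM and 46.8% in WT at its promoter over 9 cytosines (chr7:149764070-149764673). Of these, 6 could be given a strand, and both strands were lower in BM: 1.03% in BM and 43.7% in WT on the plus strand, 0% and 44.0% on the minus strand. The BP embryo had 73.4%. The H19-Igf2 control region had 34.5% in BM and 68.6% in WT over 4 cytosines, under the minimum of 5, and that of Dlk1-Meg3 was read at 1 cytosine. Rasgrf1, an exchange factor for Ras, had 28.1% in BM and 47.0% in WT over 5 cytosines.

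Meg3, a noncoding RNA of the maternal copy, had 53.8% in BM and 35.5% in WT over 17 promoter cytosines. All 6 cytosines of the printed sequence lie on the strand opposite to the gene. They ran from 46.6 to 80.0% in BM and from 0 to 30.0% in WT, in a stretch picked for its large difference. Over the whole window the ranges overlap, 16.7 to 88.2% in BM and 0 to 65.5% in WT. Further downstream, 4 plus-strand cytosines had 40.2% in BM and 44.1% in WT. There 3 minus-strand cytosines, on the strand of the 6 above, went the other way, with 38.9% in BM and 55.2% in WT. The early phESCs had 1.84% at the 6 cytosines and the BP embryo 76.2% at the 4 it covers.

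Nesp, the neuroendocrine secretory protein transcribed from the maternal Gnas copy, had 61.03% in BM and 42.5% in WT over 56 cytosines. The printed promoter holds the largest part: CpGs 5 to 12 averaged 63.8% in BM (from 55.1 to 71.3%) and 18.5% in WT (from 15.4 to 28.1%) over 14 cytosines of both strands. The excess was smaller in the stretches that follow. One from chr2:174110190-174110250 had 59.6% in BM and 42.5% in WT on the plus strand, and minus-strand cytosines from chr2:174110668-174110891 had 63.4% in BM and 62.4% in WT. In the last stretch, chr2:174110925-174110948, 3 plus-strand cytosines had 61.7% in BM and 65.0% in WT, and 2 minus-strand cytosines 64.7% in BM and 44.1% in WT. Early diploid embryonic stem cells and early phESCs had 2.38% and 1.93% at the 14 cytosines, against 68.9% in BP and 66.7% in WT adult brain. Cdkn1c, the growth inhibitor p57, had 36.0% in BM and 30.9% in WT, and the promoter of Igf2r, the receptor that clears IGF2, had 34.0% and 42.9%.

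Windows grouped here as gaining methylation on the maternal copy after fertilisation differed little in their means. The place of Nnat in this group is doubtful, since it read as most windows marked in the egg did. It had 3.08% in the BP embryo and 44.55% in early diploid embryonic stem cells. Ndn, Magel2 and Peg12 had 19.89 to 48.21% in the BP embryo and 1.749 to 26.14% in those cells. Nnat, a small membrane protein of neurons, had 63.4% in BM and 60.4% in WT, Ndn (necdin) 27.3% and 17.9%, and Magel2 46.4% and 45.5%. Peg12 had 22.1% in BM and 26.4% in WT, yet 1 stretch, chr7:69609063-69609119, had 5.03% in BM and 45.1% in WT on the plus strand and 5.45% and 48.4% on the minus strand. At Magel2, 3 minus-strand cytosines from chr7:69522700-69522838 had 40.7% in BM and 77.5% in WT, in a stretch without plus-strand values.

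Split by MspI stretch, the windows gave 73 stretches in 21 windows with at least 3 cytosines on each strand. Of these 73, 3 passed 25 points in the same direction on both strands, namely those of Kcnq1ot1, Nesp and Peg12 given above. Another 2 passed it on 1 strand alone: that of Snrpn and 1 of Mcts2-H13, with 50.5% in BM and 94.6% in WT on the plus strand and 62.9% and 64.9% on the minus strand. Among 157 strand values of at least 3 cytosines, 110 lay within 10 points. Impact, Slc38a4 and the H19 promoter were not split into stretches, so these counts leave them out. Over each of these whole windows both strands passed 25 points, higher in BM at Impact and Slc38a4 and lower at the H19 promoter.

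Promoters, taken from 1000 bp upstream to 500 bp downstream of a start and with at least 6 cytosines that reached 20%, were measured for 4120 genes. Of these, 10 were higher in BM (0.243%), 4 lower (0.0971%) and 3979 within 10 points. Ccer1, a gene of male germ cells, had 78.2% in BM and 39.2% in WT, and Asic3 72.8% and 30.2%. Pf4, the platelet chemokine, had 73.0% in BM and 42.8% in WT over 15 cytosines, and Akt1, the kinase of insulin signalling, 69.8% and 37.3%. Lhcgr, Prss40, Arhgap25, Gadd45gip1, Eng and 4833420G17Rik were the others, higher by 25.99 to 31.1 points. Short of 25 points but among the 10 largest with at least 10 cytosines, Tescl, Gmeb2, Cldn18, E330020D12Rik and Peg10 were higher by 19.8 to 24.5 points. On the lower side these were Rab10os, Gcsh, Cpn1, Gpi1, Adamts4 and Vmn2r29, by -13.1 to -20.8 points. Gcsh, a protein of the glycine cleavage system, had 10.98% in BM and 30.9% in WT over 30 cytosines.

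The 4 lower promoters are 2 pairs that share cytosines, Snrpn with Snurf and Nfs1 with Romo1. Nfs1 makes sulfur for iron-sulfur clusters and Romo1 is a small mitochondrial membrane protein. In the Romo1 sequence, CpGs 7 to 18 (positions 55 to 192) averaged 0.797% in BM and 33.4% in WT over 14 cytosines, from 0 to 3.23% in BM and from 12.1 to 44.9% in WT. Both strands showed it, by -37.5 points on the gene strand and -27.6 on the opposite strand. CpGs 1 to 6 before it had 0.1299% in BM and 0.275% in WT, and CpGs 20 to 27 after it 1.44% and 0.340%. The block was also methylated in the BM E19.5 brain (37.5%) and the WT adult brain (17.3%), and low in the BM adult brain (1.29%), the BP embryo (4.82%) and early diploid embryonic stem cells (0.932%). High and low values there thus occur among both BM and other libraries.

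Gene lists chosen for the tissue hold 2 to 28 measured promoters each, and over all 4120 promoters 0.243% were higher and 0.0971% lower, so counts near 0 are what that share gives. Of 24 germline promoters measured of 41 listed, Ccer1 was higher and none was lower, with a median of 86.7% in BM and 86.7% in WT. Dazl, an RNA-binding protein of germ cells, had 88.7% in BM and 84.3% in WT. The list of imprinted promoters leaves out Snrpn, Impact and Kcnq1ot1, and H19 was listed but not measured. Its Slc38a4 promoter (88.5% in BM and 84.9% in WT) lies outside the Slc38a4 window. The list thus does not cover the 5 imprinted windows past 25 points. Of 28 imprinted promoters measured of 51 listed, 0 passed 25 points. Their median difference was 1.72 points, against -0.140 over all 4120 promoters. None passed 25 points among DNA methylation enzymes (4 of 15 measured), pluripotency (2 of 14), trophoblast (5 of 12), blood and liver (2 of 14), muscle and heart (4 of 11), neural (4 of 15), epidermis and mesenchyme (4 of 14) or growth control outside imprinting (4 of 13). In these 8 lists the differences ran from -4.50 points (blood and liver) to 10.9 points (epidermis and mesenchyme), and too few members were measured to describe the tissues.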

How the data were processed

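The authors deposited 1 table of percent methylation (0 to 100) for each cytosine of 12 libraries, with missing values marked N and no coverage. Per the submitters' processing notes it was made with Trim Galore and Bismark 0.13.1 on mm9. Reads behind a value cannot be weighed.

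The table lists cytosines of CG and GC without context. GENCODE M21 exons and RefSeq promoters (GRCm38) were matched to the pattern of listed mm9 positions; 96614 of 103502 sequences were placed (93.3%), while moving the sequences wrongly by 2017 bp placed 2 of 37273. Context became known at 2733728 positions (33.7%).

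CpGs of placed exons and promoters outside CCGG, whose cytosines can be filled in at end repair, were averaged over strands and over 1 kb tiles of at least 3 CpGs. Windows (at least 5 cytosines) and promoters (at least 6) used cytosines with both values at 20% or more in some library other than these embryos' own, of which 98.7% were CpG where context was known. CCGG sites remain in both. In windows, strands without context were read from even runs of adjacent cytosines, which matched the known strand at 99.9% of 230512 cytosines. Higher and lower mean 25 points or more apart.

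All measured imprinted windows, listed genes past 25 points, the 10 largest tiles each way and the 10 largest promoters each way with at least 10 cytosines are named; tiles of 10 or more CpGs and single MspI stretches were named after their values were seen. One of the largest tiles is not reported here. Windows and lists were chosen with earlier results of these data known. The tile step was tested on simulated data. Computation used pandas 2.3.3 and NumPy 2.4.6 under Python 3.11.15, and figures Matplotlib 3.10.9.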

Additional observations from a re-analysis of the deposited data

Results flagged for a closer look

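Slc38a4 stood out because BM and WT differed in opposite directions, by at least 10 points each, in embryo and adult brain. BM minus WT was 33.0 points in the E15.5 embryos (72.7% in BM and 39.8% in WT) and -16.0 points in the adult brains (35.1% in BM and 51.1% in WT). The difference between these contrasts was not tested, since each rests on 1 library per group.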

How the results depend on the processing

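Counts of tiles depended on which cytosines entered. Higher tiles in BM, 39 as reported, numbered 15 with at least 5 CpGs, 6 with at least 10, 124 with CCGG sites and 755 over all autosomal cytosines that reached 20%. Lower tiles, 9 as reported, numbered 1, 0, 11 and 57 under the same changes, 14 with medians and 4 on the minus strand alone. Tiles of 2 kb, medians and single strands gave 36 to 53 higher tiles. The mean difference over exonic CpGs, 0.215 points, became 0.359 with CCGG sites, 0.293 over all listed cytosines and 1.21 over CpGs that reached 20%. With at least 10 cytosines, 5 promoters were higher in place of 10, and 4 were lower as before. Of the imprinted windows 5 passed 25 points, and 0 without the 20% requirement, which lets in cytosines outside CpG. Snrpn-Snurf had the opposite direction on the plus strand, 9.22 points, and fell short of 25 points with each library's own cytosines (-24.4) and with medians (-15.6). With own cytosines the Meg3 promoter passed instead (25.1). The minus strand alone took Kcnq1ot1 under 25 points (23.5) and Meg3 past it (28.2). The strand splits were added after seeing the data. No paired analysis was possible because each group has 1 library.

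The main limits are 1 library per group, unknown depth, unnamed deletions and context known only over placed exons and promoters.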

Other observations

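Tiles that no placed exon overlaps also lay mostly higher in BM among the large differences. Of 9738 such tiles of 1 kb with at least 10 cytosines that reached 20%, 47 were at least 25 points higher in BM and 5 lower. Of 8369 tiles overlapping an exon, 18 were higher and 2 lower. Distances below run from a tile's centre and leave out gene models such as Gm13056, so a nearer placed exon may exist. The tile with the largest difference, on chromosome 17 and 23774 bp from an exon of Tiam2, had 57.5% in BM and 8.41% in WT over 10 cytosines. A tile 11567 bp from an exon of Hic1, a transcriptional repressor silenced by methylation in tumours, had 62.0% in BM and 32.3% in WT over 20 cytosines. A tile 56876 bp from an exon of Cacna2d2, a calcium channel subunit, had 58.1% in BM and 20.8% in WT over 14 cytosines. Among the 5 lower tiles are those of the H19 and Vmn2r29 promoters given above. Another, on chromosome 3 and 284261 bp from an exon of Pex2, had 11.9% in BM and 45.8% in WT over 30 cytosines. These tiles were picked after their values were seen.

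Larger blocks differed little. Of 2345 megabases, 22 were at least 5 points higher in BM and 1 was as much lower. The highest, on chromosome 18, had 66.9% in BM and 59.0% in WT over 127 cytosines, and the lowest, on chromosome 2, had 74.3% in BM and 80.4% in WT over 54 cytosines.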
